A study of Mus musculus with 6 samples.

Results

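Natural killer cell receptor and cytotoxic granule genes were followed in mouse neurofibromas with and without the microRNA miR-155. The set comprised 10 genes, taken by symbol from the 24421 rows of the deposited read count table. They were the receptor genes Klrd1, Klrk1, Klrb1c, Klre1 and Ncr1, the transcription factor gene Eomes, and the granule genes Nkg7, Gzma, Gzmb and Prf1. All 10 had reads, and 8 of them passed the low-count filter and were tested among 15604 genes. Eomes and Gzmb had too few reads for the test.

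RNA sequencing covered 6 neurofibromas, benign tumours of the nerve sheath, from mice of the C57BL/6J background that received no drug. MiRNC149, MiRNC640 and MiRNC670 form the group miR155KO_Nf1KO, 3 tumours that lacked miR-155 and carried the Nf1fl/fl; DhhCre alleles. Nf803, Nf809 and Nf827 form the group Nf1KO, 3 tumours with the same Nf1fl/fl; DhhCre alleles and no named miR-155 knockout. In both groups Cre recombinase is driven by the Dhh promoter, which is active in the Schwann cell lineage. The labels give no ages and do not say whether the tumours of a group came from separate animals, so that p-values reflect only how much these samples varied, which may be technical.

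Natural killer cells are innate lymphocytes that weigh signals from activating and inhibitory receptors and kill target cells by releasing granules. Perforin opens the membrane of the target, and granzymes enter and start its death. Cytotoxic CD8 T cells, NKT cells and some innate lymphoid cells use several of the same genes, among them the granzymes, perforin, CD94 and NKG2D. Whole tumours were sequenced, in which fewer cells of a type and less RNA per cell cannot be told apart.

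The microRNA that separates the groups is shown with its seed (bases 2 to 8 from the 5′ end) in capitals. The sequence is RefSeq's for the mouse build GRCm38.p6 (chr16:84714143-84714165, plus strand).
mmu-miR-155-5p: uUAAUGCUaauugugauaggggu
Letters that pair with this seed were sought on the transcript strand in each gene's longest 3′ UTR (GENCODE M21, GRCm38), as AGCATTA, as GCATTAA, or as the 8-base AGCATTAA that holds both. Of the 10 genes, Eomes had such a match, an AGCATTA that begins right after the stop codon (chr9:118485010-118485031, plus strand). It is printed from the stop codon onward with the match in capitals, because no match was found in the annotated 3′ UTR of the other 9 genes.
Eomes 3′ UTR: tagAGCATTAttttaaccttta
A match was present in 14.2% of the 14059 tested genes with an annotated 3′ UTR, and the 8-base form in 3.47%.

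The genes were also compared for a short promoter motif, TGTGGT, the core that RUNX transcription factors recognise, on either strand. The window ran from 250 bases before to 50 bases after the RefSeq start (GRCm38.p6). Of the 10 genes, 9 (all but Klrd1) had a promoter in the RefSeq table, and 8 of these held the motif, Eomes being the exception. The motif was present in 18.9% of 27025 genes with such a window and in 15.4% of the 11670 tested genes. It was chosen after the promoter sequences had been read, so this is a description and no test was made. Another motif, GGTGTGA on either strand, part of the sequence that T-box factors such as Eomes recognise, was in 1 of the 9 promoters, that of Nkg7, and in 4.6% of all windows. Promoters are printed for a pair of receptor genes with fewer reads in miR155KO_Nf1KO (Klrk1 and Ncr1), for granzyme B, and for perforin, whose reads were not fewer. Each is given 5′ to 3′ on the strand of its gene, with TGTGGT or its reverse complement ACCACA in capitals.
Klrk1 promoter (chr6:129623815-129624114, minus strand): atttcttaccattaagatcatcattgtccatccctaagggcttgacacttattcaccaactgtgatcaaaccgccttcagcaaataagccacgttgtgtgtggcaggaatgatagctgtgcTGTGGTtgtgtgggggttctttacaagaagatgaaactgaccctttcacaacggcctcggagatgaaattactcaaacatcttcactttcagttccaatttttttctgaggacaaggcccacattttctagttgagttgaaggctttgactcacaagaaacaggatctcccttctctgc
Ncr1 promoter (chr7:4337465-4337764, plus strand): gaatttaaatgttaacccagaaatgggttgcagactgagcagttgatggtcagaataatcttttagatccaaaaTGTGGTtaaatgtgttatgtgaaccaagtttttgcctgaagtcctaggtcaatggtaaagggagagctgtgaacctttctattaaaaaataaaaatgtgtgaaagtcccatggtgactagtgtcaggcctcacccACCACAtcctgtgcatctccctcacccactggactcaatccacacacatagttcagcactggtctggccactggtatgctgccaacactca
Gzmb promoter (chr14:56262285-56262584, minus strand): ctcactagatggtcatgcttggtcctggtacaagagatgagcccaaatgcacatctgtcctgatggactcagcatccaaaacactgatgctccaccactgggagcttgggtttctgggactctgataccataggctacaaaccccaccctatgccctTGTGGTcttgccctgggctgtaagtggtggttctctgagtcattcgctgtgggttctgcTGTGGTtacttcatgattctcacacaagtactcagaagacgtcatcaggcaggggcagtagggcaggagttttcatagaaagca
Prf1 promoter (chr10:61297586-61297885, plus strand): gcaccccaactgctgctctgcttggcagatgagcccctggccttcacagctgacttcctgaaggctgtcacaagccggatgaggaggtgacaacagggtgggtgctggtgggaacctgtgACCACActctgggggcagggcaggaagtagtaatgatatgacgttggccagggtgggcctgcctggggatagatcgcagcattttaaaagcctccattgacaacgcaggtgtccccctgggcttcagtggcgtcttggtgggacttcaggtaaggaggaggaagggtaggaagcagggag
Ncr1 and Gzmb carried the motif at 2 places in the printed window, and Klrk1 and Prf1 at 1 place. The letters were thus present in promoters of genes with fewer reads in miR155KO_Nf1KO and of Prf1 alike.

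Column totals ran from 13061129 to 16333181 reads, so that 3 reads, the limit that a count of 0 allows, stood for 0.185 to 0.238 reads per 1e6 reads (CPM). Mir155hg, the host gene of miR-155, had 5, 3 and 1 reads in MiRNC149, MiRNC640 and MiRNC670, against 57, 66 and 71 in Nf803, Nf809 and Nf827 (log2 fold change -4.34, SE 0.54, adjusted p = 0.0186 by edgeR's quasi-likelihood test with Benjamini-Hochberg adjustment). Over the whole table the same test called 739 genes lower (4.74%) and 815 genes higher (5.22%) in miR155KO_Nf1KO. With 1 tumour left out, edgeR called 0 genes lower without MiRNC670, Nf803 or Nf827 (1778, 1755 and 1580 were lower at an unadjusted p under 0.05) and 43 without MiRNC640, whereas DESeq2 called 904 to 1573 lower. Skeletal muscle markers stood highest in MiRNC670 and Nf809, 1 tumour of each group. Adipocyte markers stood highest in MiRNC640. Read counts gave 1 female and 2 male tumours in miR155KO_Nf1KO and 2 female and 1 male in Nf1KO.

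Receptor reads were fewer in tumours without miR-155, and Klrd1 was the gene of the set that passed the test. Of the 8 tested genes, edgeR called 1 lower and 0 higher, beside 4.74% of all genes called lower and 5.22% called higher. At an unadjusted p under 0.05 there were 4, all lower in miR155KO_Nf1KO. The median log2 fold change was -2.01 over the 8 genes and 0.01 over all genes tested, with 6 negative and 2 positive values. The tumours of the groups did not overlap for 4 of the 8 tested genes (Klrd1, Klrk1, Klre1 and Ncr1), all lower in miR155KO_Nf1KO, beside 16.3% of all genes. The untested Eomes did not overlap either. Klrd1 and Klre1 passed the low-count filter through the Nf1KO tumours alone, where their reads were more. Klrk1, Klrb1c, Ncr1 and Nkg7 reached its limit in every Nf1KO tumour but not in every miR155KO_Nf1KO tumour. These 6 were the genes with negative values, and they include the 4 that did not overlap. The median, the signs and the overlap counts thus rest largely on genes kept for their level in Nf1KO. They describe the set and do not test it.

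**Figure D1:**
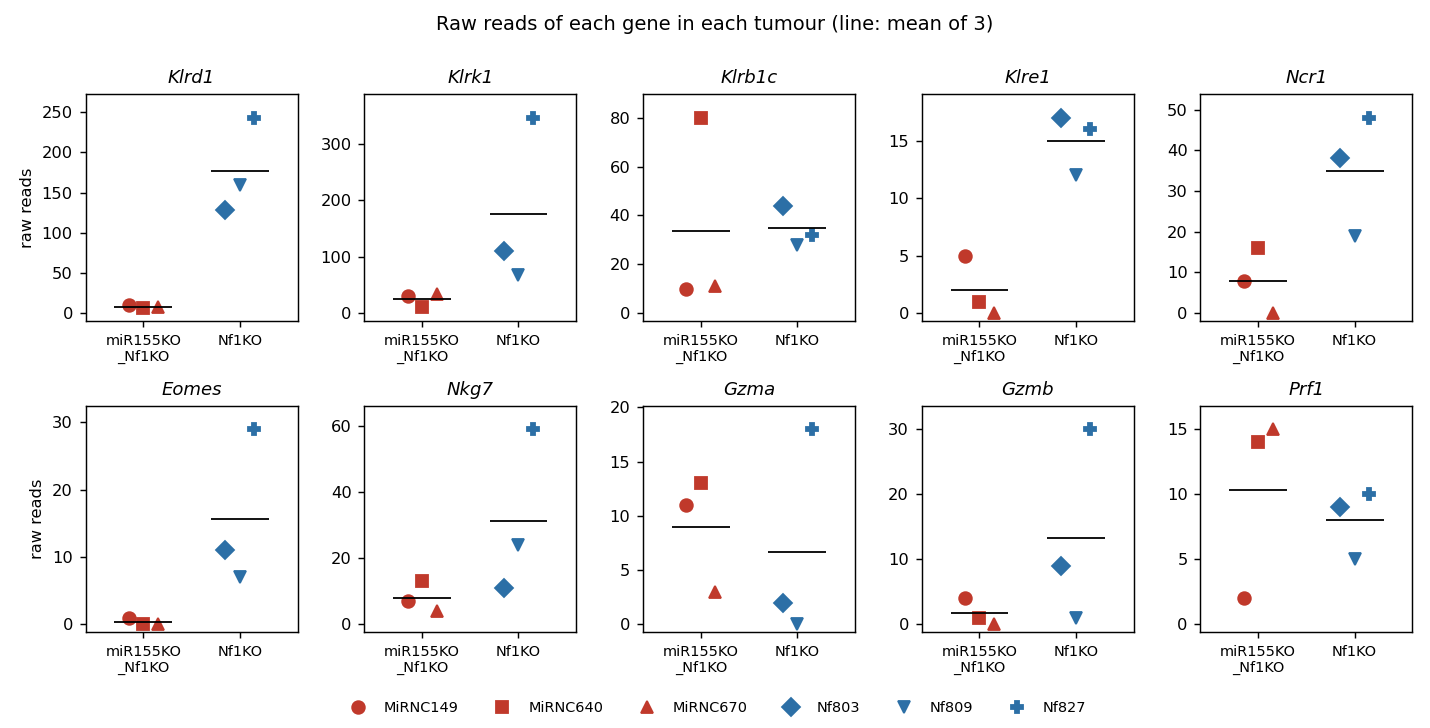
Raw reads of the 10 genes in each tumour, with miR155KO_Nf1KO tumours in red on the left and Nf1KO tumours in blue on the right of each panel, a line at the mean of 3, and an axis of its own from 0 for each gene. Klrd1 had at most 10 reads in a miR155KO_Nf1KO tumour and at least 128 in an Nf1KO tumour, while the groups overlapped for Klrb1c, Nkg7, Gzma, Gzmb and Prf1.

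Klrd1 encodes CD94, the common partner of the chains NKG2A and NKG2C, with which it binds Qa-1, a nonclassical class I molecule made from H2-T23. The gene (ENSMUSG00000030165.16) lies on chromosome 6 from 129591782 to 129598775, plus strand, in the natural killer gene complex. It had 10, 6 and 8 reads in MiRNC149, MiRNC640 and MiRNC670, against 128, 159 and 243 reads in Nf803, Nf809 and Nf827. Every tumour without miR-155 was far below every Nf1KO tumour. Klrd1 averaged 0.561 ± 0.135 CPM in miR155KO_Nf1KO and 11.8 ± 3.88 CPM in Nf1KO (SD, n = 3 each). It fell by 4.38 on the log2 scale (SE 0.39, adjusted p = 0.0186, edgeR's quasi-likelihood test with Benjamini-Hochberg adjustment). Pooled over the tumours, 24 reads in miR155KO_Nf1KO stood against 530 in Nf1KO, which on the CPM scale was 21.1 times as many in Nf1KO (95% exact binomial interval 14.1 to 33.3). The intervals given for this and the other genes cover counting error only, because the reads of a group's tumours were pooled. They leave out how much the tumours of a group differed, so that they can be narrow where edgeR did not call a gene. The libraries also had no molecular identifiers to count single molecules.

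With edgeR, the call on Klrd1 was lost when any of 3 tumours was left out. The adjusted p was 0.0848 without MiRNC670, 0.0838 without Nf803 and 0.0668 without Nf827, while the log2 fold change stayed between -4.56 and -4.08 whichever of the 6 tumours was left out, and DESeq2 called Klrd1 in each of these 6 fits.

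The other receptor genes had fewer reads, except Klrb1c. Klrk1 encodes NKG2D, an activating receptor for the stress ligands Rae-1, H60 and MULT1 (chromosome 6, 129610323 to 129623864, minus strand). It had 31, 10 and 33 reads in MiRNC149, MiRNC640 and MiRNC670, against 110, 68 and 346 in Nf803, Nf809 and Nf827. The groups did not overlap, but Nf827 alone held most of the Nf1KO reads. Klrk1 averaged 1.76 ± 0.990 CPM in miR155KO_Nf1KO and 11.8 ± 10.04 CPM in Nf1KO (SD, n = 3 each), and its log2 fold change of -2.74 (SE 0.74) was not called by edgeR's quasi-likelihood test (adjusted p = 0.0606). With 1 tumour left out, edgeR gave -3.17 (without MiRNC670) to -1.79 (without Nf827) and called it without Nf809 alone (adjusted p = 0.0199, against up to 0.176 in the other 5 fits). DESeq2 called it with all tumours (adjusted p = 0.000757) but not without Nf827 (adjusted p = 0.0638), and with sex as a covariate or by limma voom it was not called (adjusted p = 0.152 and 0.153). The pooled CPM was 6.78 times as high in Nf1KO (5.30 to 8.77).

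Klre1 encodes an NKG2-related chain that pairs with the products of Klri1 and Klri2 (chromosome 6, 129577905 to 129585827, plus strand). It had 5, 1 and 0 reads in MiRNC149, MiRNC640 and MiRNC670, against 17, 12 and 16 in Nf803, Nf809 and Nf827. The groups were apart at low counts, with 0.130 ± 0.170 CPM in miR155KO_Nf1KO and 1.02 ± 0.251 CPM in Nf1KO (SD, n = 3 each). The log2 fold change of -2.82 (SE 0.92) was not called by edgeR (adjusted p = 0.101) and ran from -4.51 (without MiRNC149, which held 5 of the 6 reads) to -2.36 (without MiRNC670). DESeq2 called it without MiRNC149 (adjusted p = 0.033) and in none of its other fits. The pooled CPM was 7.18 times as high in Nf1KO (3.05 to 20.6).

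Ncr1 encodes NKp46, an activating receptor that marks natural killer cells and some other innate lymphoid cells (chromosome 7, 4337724 to 4345164, plus strand). It had 8, 16 and 0 reads in MiRNC149, MiRNC640 and MiRNC670, against 38, 19 and 48 in Nf803, Nf809 and Nf827. The groups did not overlap, though MiRNC640 and Nf809 came within a few reads of each other. The log2 fold change was -2.12 (SE 0.96, adjusted p = 0.213 by edgeR), from -3.10 (without MiRNC640) to -1.59 (without MiRNC670) with 1 tumour left out and -2.80 by limma voom. DESeq2 called it without MiRNC640 (adjusted p = 0.042) and in none of its other fits. The pooled CPM was 4.19 times as high in Nf1KO (2.67 to 6.82).

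Klrb1c encodes NK1.1, the surface antigen by which natural killer cells of C57BL/6 mice are commonly identified (chromosome 6, 128778485 to 128789215, minus strand). It had 10, 80 and 11 reads in MiRNC149, MiRNC640 and MiRNC670, against 44, 28 and 32 in Nf803, Nf809 and Nf827. MiRNC640 was the highest of the 6 tumours and the other tumours without miR-155 were the lowest, so that the groups overlapped. The means were 2.31 ± 2.68 CPM in miR155KO_Nf1KO and 2.36 ± 0.754 CPM in Nf1KO (SD, n = 3 each), with a log2 fold change of -0.02 (SE 0.82, adjusted p = 0.99 by edgeR). Without MiRNC640 the log2 fold change was -1.63 (adjusted p = 0.189 by edgeR). An annotated gene on the same strand, Gm44511, overlaps 413 exon bases of Klrb1c, and reads there may have been shared or dropped.

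Eomes encodes a T-box transcription factor needed for the maturation of natural killer cells and expressed in CD8 T cells (chromosome 9, 118478212 to 118486132, plus strand). It had 1, 0 and 0 reads in MiRNC149, MiRNC640 and MiRNC670, against 11, 7 and 29 in Nf803, Nf809 and Nf827. The single read in MiRNC149 was all that the 3 tumours without miR-155 gave, and the groups did not overlap. The pooled CPM was 45.0 times as high in Nf1KO, with an interval of 7.69 to 1814 that reflects the single read. Eomes did not pass the low-count filter. Fitted with no such filter by edgeR, it was called (log2 fold change -5.08, SE 1.29, adjusted p = 0.0498), and Klrd1 and Eomes were then the 2 genes of the set called lower, beside 3.74% of all genes in that fit. DESeq2 called 3 lower, Klrd1, Klrk1 and Eomes (adjusted p = 0.00775 for Eomes), and 0 higher, beside 8.29% of all genes called lower. With 1 tumour left out, DESeq2 did not call Eomes without MiRNC640 or MiRNC670 (adjusted p = 0.0552 and 0.0576) and gave it no adjusted p without Nf827, the fit in which Klrk1 was not called either.

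The granule genes did not move as a block. Nkg7 encodes a granule membrane protein of cytotoxic lymphocytes (chromosome 7, 43437073 to 43438249, plus strand). It had 7, 13 and 4 reads in MiRNC149, MiRNC640 and MiRNC670, against 11, 24 and 59 in Nf803, Nf809 and Nf827. MiRNC640 lay above Nf803, so that the groups overlapped, and the log2 fold change of -1.90 (SE 0.75) was not called by edgeR (adjusted p = 0.156). It ran from -2.40 (without MiRNC640) to -1.05 (without Nf827, which held 59 of the 94 Nf1KO reads). The pooled CPM was 3.75 times as high in Nf1KO (2.37 to 6.14).

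Gzmb encodes granzyme B, a serine protease that cleaves caspases in target cells (chromosome 14, 56258838 to 56262260, minus strand). It had 4, 1 and 0 reads in MiRNC149, MiRNC640 and MiRNC670, against 9, 1 and 30 in Nf803, Nf809 and Nf827. Nf827 held most of the reads and Nf809 had as few as MiRNC640. The gene was not tested, and its pooled CPM was 7.66 times as high in Nf1KO (3.02 to 24.9).

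Gzma encodes granzyme A, a serine protease of another specificity (chromosome 13, 113093825 to 113100981, minus strand). It had 11, 13 and 3 reads in MiRNC149, MiRNC640 and MiRNC670, against 2, 0 and 18 in Nf803, Nf809 and Nf827. Here 2 of the 3 Nf1KO tumours were the lowest and Nf827 the highest, and the log2 fold change was 0.44 (SE 1.20, adjusted p = 0.856 by edgeR). It ran from -0.13 without Nf809 to 3.01 without Nf827, so that Nf827 set its size.

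Prf1 encodes perforin, the protein that opens the target membrane (chromosome 10, 61297833 to 61304680, plus strand). It had 2, 14 and 15 reads in MiRNC149, MiRNC640 and MiRNC670, against 9, 5 and 10 in Nf803, Nf809 and Nf827. Tumours without miR-155 held both the highest and the lowest values, with 0.754 ± 0.555 CPM in miR155KO_Nf1KO and 0.544 ± 0.204 CPM in Nf1KO (SD, n = 3 each). The log2 fold change was 0.46 (SE 0.82, adjusted p = 0.776 by edgeR), and the pooled ratio of miR155KO_Nf1KO over Nf1KO was 1.35 (0.767 to 2.40). At these depths no difference in Prf1 or Gzma was detectable, and the interval for Gzma was 0.762 to 2.65 around a ratio of 1.41.

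**Figure D2:**
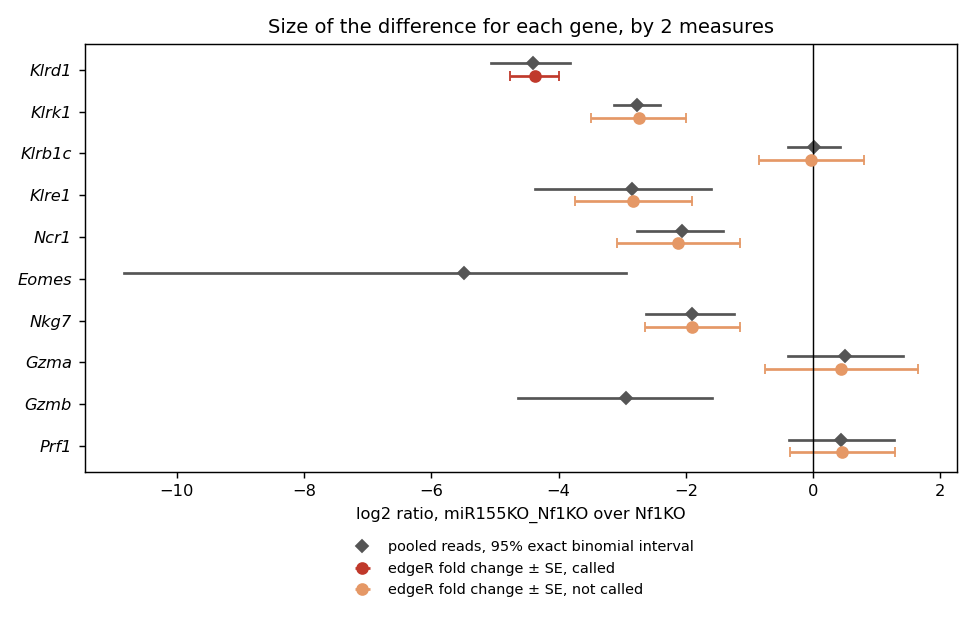
Log2 ratio of miR155KO_Nf1KO over Nf1KO for each gene, from the pooled reads with their 95% exact binomial interval (black diamonds) and from edgeR with its SE (circles, red where called); Eomes and Gzmb have no edgeR value. Klrd1 is the called gene at -4.38, and the intervals of Klrb1c, Gzma and Prf1 hold 0.

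Summed over the 5 receptor genes, there were 64, 113 and 52 reads in MiRNC149, MiRNC640 and MiRNC670, against 337, 286 and 685 in Nf803, Nf809 and Nf827. The 4 granule genes together had 24, 41 and 22 reads in the tumours without miR-155, against 31, 30 and 117 in the Nf1KO tumours. The receptor sums did not overlap, whereas the granule sums did. There were thus 2.67, 2.76 and 2.36 receptor reads per granule read in MiRNC149, MiRNC640 and MiRNC670, against 10.9, 9.53 and 5.85 in Nf803, Nf809 and Nf827. These ratios did not overlap between the groups, and they were not tested, since the grouping by role was made with the reads known. Within the receptor reads the balance of genes differed too: Klrd1 made up 15.6%, 5.31% and 15.4% of them in MiRNC149, MiRNC640 and MiRNC670, against 38.0%, 55.6% and 35.5% in Nf803, Nf809 and Nf827. In MiRNC640, 70.8% of the receptor reads came from Klrb1c.

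Levels were compared between genes as CPM per kilobase of exon (RPKM). In miR155KO_Nf1KO, Klrb1c (0.779 ± 0.907 RPKM), Gzma (0.604 ± 0.330), Nkg7 (0.600 ± 0.321), Klrd1 (0.438 ± 0.105), Ncr1 (0.345 ± 0.351), Prf1 (0.292 ± 0.215) and Klrk1 (0.245 ± 0.138) lay within each other's spread (SD, n = 3). Gzmb (0.0755), Klre1 (0.0372) and Eomes (0.00517) had mean RPKM values below these. In Nf1KO, Klrd1 stood first at 9.21 ± 3.03 RPKM (SD, n = 3), and its lowest tumour (7.25) was above the highest RPKM of each of the other 9 genes. As CPM, Klrd1 and Klrk1 were level in Nf1KO (means of 11.8), and in Nf827 Klrk1 was higher (23.2 against 16.3 CPM). The RPKM order of Klrd1 and Klrk1 thus rests on exon length. This was 1281 bases for Klrd1 and 7183 for Klrk1, taken over all annotated transcripts of a gene. Nkg7 (2.27 ± 1.81 RPKM), Klrk1 (1.64 ± 1.40), Ncr1 (1.55 ± 0.695), Klrb1c (0.796 ± 0.255) and Gzmb (0.632 ± 0.695) followed in Nf1KO, each overlapping its neighbour in that order. Gzma, Klre1, Eomes and Prf1 averaged between 0.211 and 0.447 RPKM there.

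General leukocyte markers were lower in the tumours without miR-155, and the genes were set beside them. Of the 9 tested genes of the pan-leukocyte list, 8 were called lower. The summed level of the list was 222 to 403 CPM in miR155KO_Nf1KO and 716 to 1883 CPM in Nf1KO. Not every leukocyte type followed: of 11 mast cell genes 0 were called, and their sums overlapped (81.4 to 99.7 CPM in miR155KO_Nf1KO and 53.7 to 109 CPM in Nf1KO). Ptprc, the leukocyte antigen CD45, had 1161, 599 and 673 reads in MiRNC149, MiRNC640 and MiRNC670, against 4404, 2779 and 8752 in Nf803, Nf809 and Nf827. Per 1000 reads of the pan-leukocyte list, the 10 genes together had 26.1 ± 18.1 reads in miR155KO_Nf1KO and 27.3 ± 2.58 reads in Nf1KO (SD, n = 3 each). As a log2 ratio of the means this was -0.06, and -0.79 without MiRNC640, the tumour rich in Klrb1c reads. Per 1000 Ptprc reads the 10 genes had 148 ± 96.0 reads in miR155KO_Nf1KO and 99.1 ± 15.5 reads in Nf1KO, a log2 ratio of 0.58. The sign of this ratio thus differed between the divisors, with the list as divisor it was also positive without MiRNC149 (0.23) or MiRNC670 (0.16), and the groups overlapped with both divisors.

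Single genes departed from that sum. Klrd1 had 1.596, 1.83 and 1.87 reads per 1000 leukocyte reads in MiRNC149, MiRNC640 and MiRNC670, against 8.27, 13.7 and 8.64 in Nf803, Nf809 and Nf827. Of the tested genes of the set, Klrd1 alone stayed lower without overlap on this scale, beside 0.513% of all genes tested. Eomes, which was not tested and so is not part of that share, stayed lower without overlap too. Eomes averaged 0.0532 ± 0.0922 in miR155KO_Nf1KO and 0.782 ± 0.222 in Nf1KO per 1000 leukocyte reads (SD, n = 3 each). Gzma was higher without overlap, with 1.76, 3.96 and 0.701 in MiRNC149, MiRNC640 and MiRNC670, against 0.129, 0 and 0.640 in Nf803, Nf809 and Nf827, as were 81.8% of all genes tested. The other 7 genes overlapped, and with Ptprc reads as the divisor the same 3 genes did not. No test was made on this scale.

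**Figure D3:**
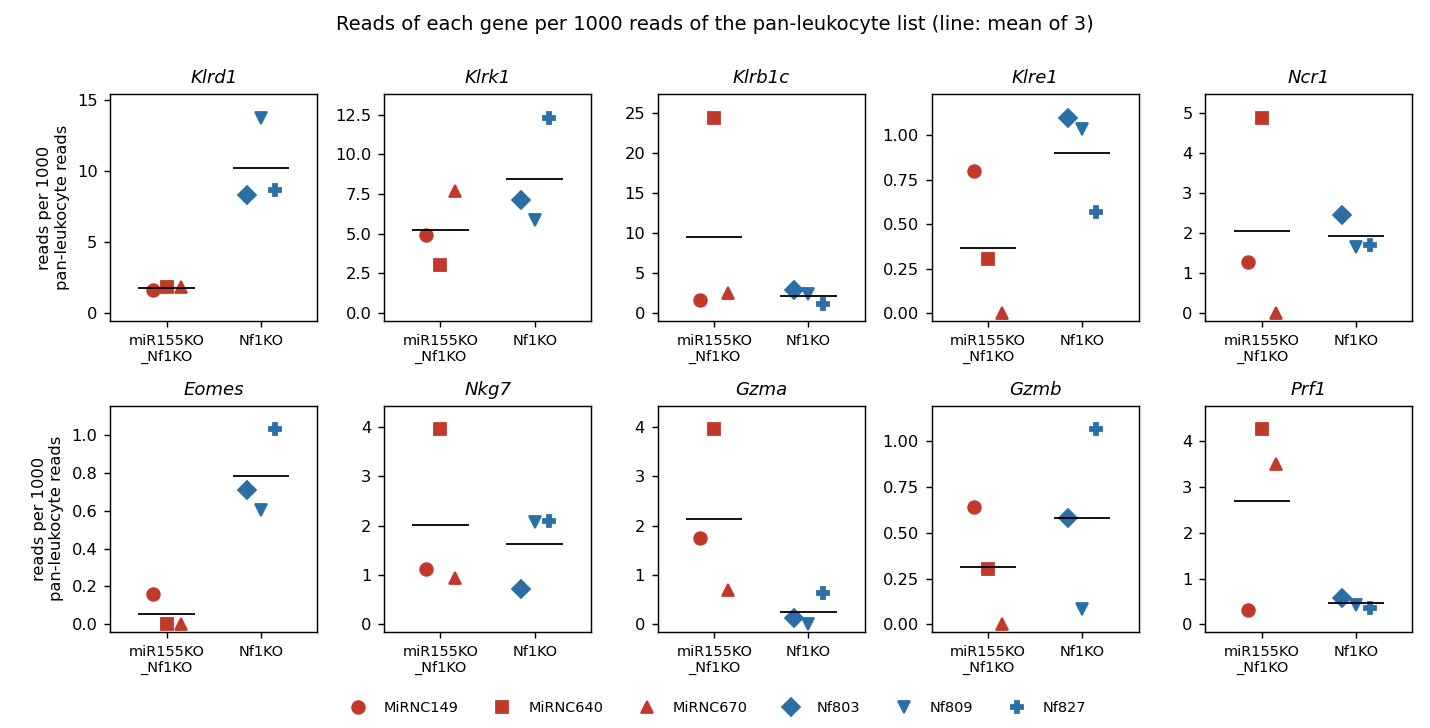
Reads of each gene per 1000 reads of the pan-leukocyte list in each tumour, with miR155KO_Nf1KO in red on the left, Nf1KO in blue on the right, a line at the mean of 3 and an axis from 0 for each gene. Klrd1 lies between 1.596 and 1.87 in miR155KO_Nf1KO and between 8.27 and 13.7 in Nf1KO, and the highest Klrb1c, Ncr1, Nkg7, Gzma and Prf1 values are those of MiRNC640.

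Markers of other cells, some of which use these genes, were measured as well. Of the 6 tested T cell genes, edgeR called 0 lower (DESeq2 called 3, and 5 had an unadjusted p under 0.05), with a summed level of 11.7 to 12.2 CPM in miR155KO_Nf1KO and 18.9 to 73.8 CPM in Nf1KO. Cd8a, the coreceptor of cytotoxic T cells, had 11, 4 and 18 reads in MiRNC149, MiRNC640 and MiRNC670, against 21, 89 and 103 in Nf803, Nf809 and Nf827. Cd3e, a chain of the T cell receptor complex, had 30, 21 and 15 reads in miR155KO_Nf1KO, against 50, 23 and 129 in Nf1KO. Markers of gamma-delta T and NKT cells overlapped (32.6 to 125 CPM in miR155KO_Nf1KO and 21.8 to 191 CPM in Nf1KO), with 0 of only 2 tested genes called. Those of type 2 and type 3 innate lymphoid cells overlapped too (192 to 217 and 202 to 264 CPM), with 0 of 6 tested genes called. Nf827 was highest in Cd3e and in the summed pan-leukocyte list, as it was in 7 of the 10 genes (all but Klrb1c, Klre1 and Prf1). Macrophage markers moved with the receptors (6 of 11 called lower, 432 to 850 CPM in miR155KO_Nf1KO and 1259 to 2335 CPM in Nf1KO), and neuron markers the other way (8 of 10 called higher, 5425 to 8557 CPM in miR155KO_Nf1KO and 1332 to 2607 CPM in Nf1KO). Their part in the values of the 10 genes was not tested.

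The rest of the natural killer pathway was described with 8 lists of other genes, of which 150 were in the table and 105 were tested. edgeR called 34 of these lower and 0 higher, beside 4.74% and 5.22% of all genes tested. At an unadjusted p under 0.05 by edgeR, 59 were lower and 2 higher. Of the 150 genes in the table, DESeq2 called 53 lower and 1 higher, beside 8.29% of all genes called lower. The median log2 fold change of the 105 genes was -1.25, beside 0.01 over all genes. Of the 105, 58 were lower without overlap, beside 16.3% of all genes tested. Without MiRNC670, Nf803 or Nf827, edgeR called 0 of them lower (58, 57 and 43 were lower at an unadjusted p under 0.05), and 3 without MiRNC640, while DESeq2 called 35 to 62 with 1 tumour left out. Many of these genes are shared with other leukocytes. Some, such as Klri2 and Klrc1, passed the low-count filter through the Nf1KO tumours alone. The shares of 4.74% lower and 5.22% higher over all genes also stand beside the edgeR counts of each list that follows.

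Among 14 tested genes of other natural killer receptors, 4 were called lower and 0 higher, with a median of -2.01. Klri1 and Klri2, which encode the partners of Klre1, both fell. Klri2 had 4, 3 and 6 reads in MiRNC149, MiRNC640 and MiRNC670, against 49, 53 and 129 in Nf803, Nf809 and Nf827 (log2 fold change -4.03, SE 0.62, adjusted p = 0.0212 by edgeR). Klri1 had 22, 10 and 8 reads in miR155KO_Nf1KO, against 68, 68 and 216 in Nf1KO (log2 fold change -3.09, SE 0.63, adjusted p = 0.03 by edgeR). Cd244 (2B4, log2 fold change -2.96) and Slamf7 (CRACC, -2.74), receptors of the SLAM family found on several leukocytes, fell too. Klrc1, which encodes NKG2A, the inhibitory partner of CD94, had 0, 3 and 0 reads in miR155KO_Nf1KO, against 12, 14 and 52 in Nf1KO. Its log2 fold change of -4.49 was not called by edgeR (SE 1.20, adjusted p = 0.0583) and was called by DESeq2 (adjusted p = 0.00552). The untested Klrc2, which encodes the activating partner NKG2C, had 2 reads in each tumour without miR-155, against 7, 11 and 8 reads in the Nf1KO tumours. Klrb1a, a relative of Klrb1c on the same chromosome, ran the other way with 233, 379 and 278 reads in miR155KO_Nf1KO, against 179, 137 and 174 in Nf1KO (log2 fold change 0.92, SE 0.26, adjusted p = 0.0713 by edgeR, and 0.0222 by DESeq2). The 9 Klra genes of the list, which encode Ly49 receptors, gave 2, 8 and 4 reads in all in miR155KO_Nf1KO, against 7, 6 and 25 in Nf1KO, and 3 of them (Klra4, Klra6 and Klra8) had no read. Klrc1, Klrc2 and Klrb1a were picked for their relation to the set after their values were seen. Genes of the Klr, Klra and granzyme families have close copies, and how reads matching more than 1 place were counted is not given in the sources used here.

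Among 13 tested adaptors and signalling genes, 6 were called lower and 0 higher, with a median of -1.79. Sh2d1b1 (EAT-2), an adaptor of SLAM receptors, had 62, 37 and 28 reads in miR155KO_Nf1KO, against 381, 288 and 472 in Nf1KO (log2 fold change -3.14, SE 0.33, adjusted p = 0.0186 by edgeR). Plcg2 (-2.15), Ptpn6 (-2.28) and Fcer1g (-2.30), which encode a phospholipase, the phosphatase SHP-1 and a signalling chain of NKp46 and Fc receptors, fell as well. Tyrobp (DAP12) fell by 1.79 on the log2 scale (adjusted p = 0.0435 by edgeR). Hcst (DAP10), the adaptor of NKG2D, was not tested and had 1, 4 and 3 reads in miR155KO_Nf1KO, against 8, 16 and 35 in Nf1KO. Tyrobp and Hcst were named after their values were seen.

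Of 7 other tested granule genes, 2 were called lower and 0 higher, with a median of -0.62. They were Srgn (-1.25), the proteoglycan that holds granule contents, and Ctsc (-1.51), the protease that activates progranzymes, and both are used by many other leukocytes. Ctsw and Serpinb9 were not called (-1.17, adjusted p = 0.125, and -0.55, adjusted p = 0.128, by edgeR). In the exocytosis list 3 of 13 were called lower and 0 higher, with a median of -0.58. Those were Coro1a (-1.88), Was (-2.18) and Wipf1 (-0.89), which act on the actin cytoskeleton, and Vamp8, a vesicle fusion protein, was not called (-0.67, adjusted p = 0.0856 by edgeR).

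Of 13 tested transcription factor genes, 3 were called lower and 0 higher, with a median of -0.47. Runx3 had 122, 67 and 67 reads in miR155KO_Nf1KO, against 260, 227 and 473 in Nf1KO (log2 fold change -1.86, SE 0.36, adjusted p = 0.0277 by edgeR). Its family recognises the promoter motif printed with the sequences, but a part of Runx3 in the reads of the 10 genes was not tested. Prdm1 (-1.89) and Irf2 (-0.54) fell as well, whereas Id2 was not called (-1.06, adjusted p = 0.133 by edgeR). Tbx21, which encodes the T-box factor T-bet, was not tested and had 2, 8 and 7 reads in miR155KO_Nf1KO, against 7, 22 and 12 in Nf1KO. It was named after its values were seen.

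Of 12 tested cytokine and cytokine receptor genes, 4 were called lower and 0 higher, with a median of -1.82. All 4 encode receptor chains: Il18rap (-2.53) and Il18r1 (-2.09) of the interleukin 18 receptor, Il21r (-2.82), and Il2rg (-2.34), the common chain used by interleukin 15. Among 19 homing and adhesion genes, 6 were called lower and 0 higher, with a median of -1.55, including the chemokine receptor gene Ccr2 (-2.14) and the integrin genes Itgb7 (-2.06) and Itgb2 (-2.05).

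Ligands of the receptors can be carried by tumour cells and by leukocytes. Of 14 tested, 6 were called lower and 0 higher, with a median of -1.35. H2-T23, whose product Qa-1 is bound by CD94 with NKG2A or NKG2C, had 342, 260 and 123 reads in miR155KO_Nf1KO, against 817, 1022 and 1568 in Nf1KO (log2 fold change -2.20, SE 0.35, adjusted p = 0.0227 by edgeR). The gene of CD94 and that of its ligand were thus both lower in tumours without miR-155. B2m (-1.30), the light chain of class I molecules, and the lectin genes Clec2g (-3.87) and Clec2i (-2.36) fell as well. H60b and Ulbp1, which encode ligands of NKG2D, were not called (log2 fold change -1.59, adjusted p = 0.105, and -0.92, adjusted p = 0.416, by edgeR). They were named after their values were seen.

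**Figure D4:**
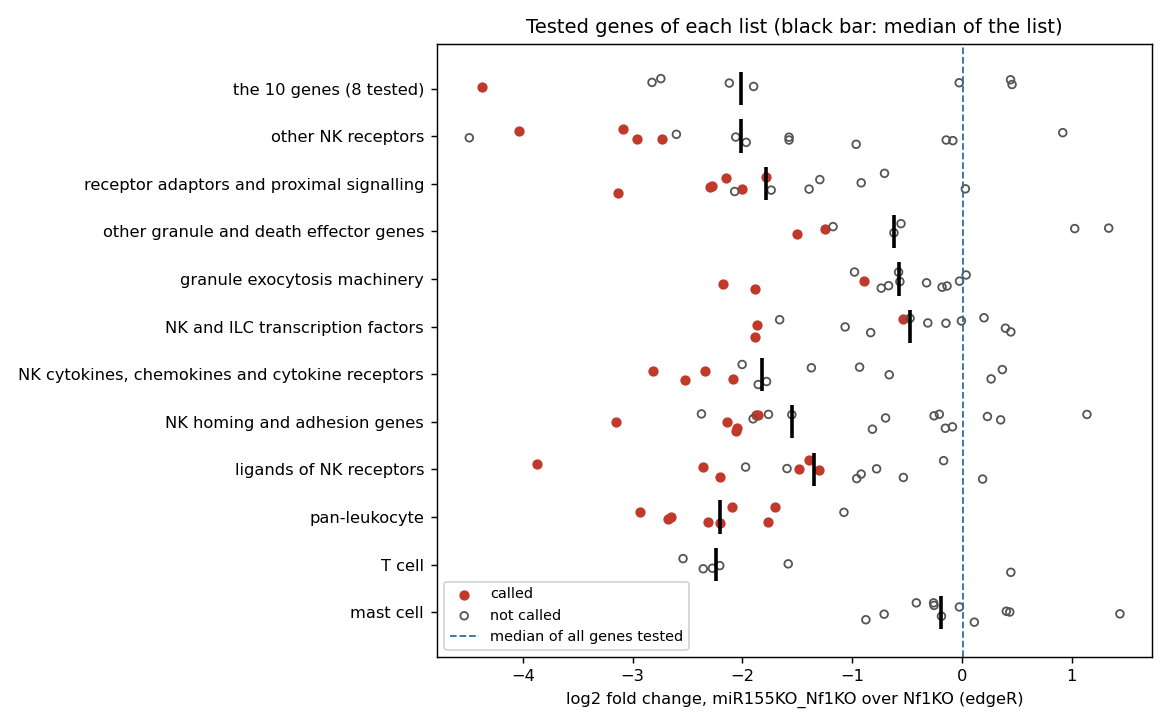
Log2 fold change (miR155KO_Nf1KO over Nf1KO, edgeR) of each tested gene of the set, of 8 lists of other natural killer pathway genes and of 3 marker lists, with called genes in red, a black bar at each median and a dashed line at the median of all genes tested. The medians of the set and of the other receptors are both -2.01, and that of the mast cell list is -0.19.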

How the data were processed

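The deposited table holds the authors' unscaled whole-number counts by gene symbol, made with HISAT2 2.0.5 and featureCounts 1.5.2 on mm10 per the submitters' processing notes. Per the labels' protocols, libraries came from an Illumina Nextera XT kit. The strand setting and the treatment of multiply matching reads were not given in the sources used here. Counts were tested by the two-sided quasi-likelihood test of edgeR 4.0.16 (R 4.3.3) following TMM scaling and filterByExpr with a minimum count of 10 and a minimum total of 15, with Benjamini-Hochberg adjustment over all 15604 genes tested and calls at an adjusted p under 0.05. That test returns no SE. The SE given with its log2 fold changes is the absolute log2 fold change divided by the square root of the F statistic. CPM is per 1e6 reads of the TMM-scaled total, and RPKM divides it by the exon length in GENCODE M21. Intervals of pooled ratios are 95% exact (Clopper-Pearson) binomial intervals. Replicate counts differed by at least 23.2 times the Poisson variance, so no library repeats another. The test was also run on counts simulated from the same fit. These were not split by read level and no tumour was left out, so nothing about the 10 genes is drawn from them. Alternatives were other scalings and filters, DESeq2 1.42.0, limma voom 3.58.1, sex as a covariate and leaving out tumours. Samples were grouped by their titles. The 10 genes, the lists and the promoter motif were chosen with earlier results of these data known. The text names the 10 genes, Mir155hg, Ptprc, Cd3e, Cd8a and the 4 genes of each pathway list with the smallest p, and marks others. A gene taken by this rule is not reported here.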

Additional observations from a re-analysis of the deposited data

How the results depend on the processing

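Klrd1 was called by edgeR under every scaling, filter and covariate tried with all 6 tumours, and by DESeq2 also with each tumour left out. The number of the 10 genes called lower was 1, and 3 with DESeq2 and 2 with no low-count filter. It ran from 0 to 4 over the fits that left out 1 tumour with edgeR or, as an alternative chosen after seeing the data, with DESeq2. It was 0 with edgeR without MiRNC670, Nf803 or Nf827 (4, 3 and 3 were lower at an unadjusted p under 0.05) and 3 without Nf809. No fit called any of the 10 higher. Over the whole table, DESeq2 called 1441 genes lower and 1477 higher, and edgeR with sex as a covariate called 534 higher. Leaving out 1 tumour gave 0 to 1059 lower and 0 to 1183 higher with edgeR, and with DESeq2 at most 1573 lower and 1731 higher (without Nf809) and 1556 lower and 1630 higher (without MiRNC149). For the other pathway genes, DESeq2 called 53 lower and 1 higher, and leaving out 1 tumour gave 0 to 47 lower with edgeR, 35 to 62 lower with DESeq2, and 0 to 3 higher over both. The log2 ratio of the set per leukocyte read ran from -0.79 to 0.23 when 1 tumour was left out and was 0.58 with Ptprc as the divisor. Klrk1, Eomes, Klre1, Ncr1 and Nkg7 stayed negative in every fit that gave them a value. Genes near 0 turned direction. With 1 tumour left out, the log2 fold change of Klrb1c ran from -1.63 to 0.44 with edgeR and was 0.25 (Nf803), 0.42 (MiRNC149) or 0.36 (MiRNC670) with DESeq2. It was 0.17 without MiRNC670 and Nf809. Gzma ran from -0.13 to 3.01 with edgeR and from -0.17 to 3.12 with DESeq2. Prf1 ran from -0.029 to 0.97 with edgeR, was -0.020 with DESeq2 without MiRNC670, -0.029 with sex as a covariate and -0.32 without MiRNC670 and Nf809. The cause was not tested. Depth limits Eomes, Gzmb, Klre1, Gzma and Prf1 most, whose reads per tumour reached 30 at most. No paired analysis was possible because the groups share no replicate numbers.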

Other observations

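A few genes of the lists had higher mean levels in miR155KO_Nf1KO, and they were chosen after their values were seen. Il5, a cytokine gene of type 2 innate lymphoid cells, had 46, 20 and 15 reads in MiRNC149, MiRNC640 and MiRNC670, against 7, 0 and 6 in Nf803, Nf809 and Nf827. The tumours without miR-155 were all above the Nf1KO tumours, but the log2 fold change of 2.59 was not called by edgeR's quasi-likelihood test (SE 0.96, adjusted p = 0.135). The list it came from, of type 2 and type 3 innate lymphoid cell genes, was mixed. Of its 6 tested genes, 3 had negative and 3 had positive log2 fold changes, and edgeR called 0. Il7r (-1.74) and Il1rl1 (-1.12) were among the negative ones. Cst7, which encodes cystatin F, an inhibitor of the protease made from Ctsc, had 26, 96 and 89 reads in miR155KO_Nf1KO, against 31, 27 and 31 in Nf1KO, and the groups overlapped (log2 fold change 1.34, SE 0.55, adjusted p = 0.176 by edgeR). S1pr5, a receptor by which natural killer cells leave lymphoid tissue, had 23, 46 and 18 reads in miR155KO_Nf1KO, against 8, 15 and 18 in Nf1KO. As CPM the S1pr5 values did not overlap, and the log2 fold change of 1.14 was not called by edgeR (SE 0.54, adjusted p = 0.231).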
